A study of Mus musculus with 12 samples.

Results

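The genes described here are 44 components of TGF-beta, activin and BMP signalling in mouse liver, from the ligands through receptors and SMAD proteins to the ID target genes. A gene was taken when its symbol in the deposited table was on a list of pathway components, and all 44 symbols were found among 16035 genes. No member was chosen by its measured value in the rule, although the list was drawn up with earlier results of these data known. The livers came from C57BL/6 mice, titled WT, in 4 groups of 3 biological replicates. The first group had normal chow for 1 month and was 3 months old. The second had the diet labelled HFCF, a name the labels do not spell out, for 1 month and was also 3 months old. The other groups had chow or HFCF for 3 months and were 6 months old, so time on the diet and age cannot be told apart. No allele, transgene or other agent is named in the labels. The study concerns liver RNA in an experimental model of nonalcoholic steatohepatitis.

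TGF-beta is secreted in a latent complex with latent TGF-beta binding proteins and has to be released before it can bind its receptors. Ligands of the family assemble type I and type II receptor kinases, which phosphorylate receptor-regulated SMADs: SMAD2 and SMAD3 for TGF-beta and activin, SMAD1, SMAD5 and SMAD9 for BMPs. These join SMAD4 and act on target genes in the nucleus, among them the inhibitory SMADs and the ID genes, which feed back on or carry the response. In liver, TGF-beta is the classic activator of stellate cells and matrix synthesis, whereas BMP2 and BMP6 from sinusoidal endothelial cells drive hepcidin, the iron hormone, in hepatocytes.

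The 12 libraries held 13733485 to 20277572 counts, and all 44 members passed the filter on low counts. Levels are CPM, a gene's reads relative to the TMM-scaled size of its library. Differences are on the log2 scale with their SE, fitted by the quasi-likelihood method of edgeR. P-values were adjusted by Benjamini-Hochberg over all 14725 genes tested, and a gene is said to rise or fall where that adjusted p was under 0.05. An earlier account of these data had set apart replicate 1 of chow at 1 month and replicate 3 of HFCF at 3 months. No rule applied here chose them. They also stood apart from their groups on the first 2 principal components, which held 42.7% and 13.2% of the variance. Replicate 1 of HFCF at 1 month (-33.1 against -18.5 and -17.3 on the second) lay off its group by less. So did replicate 1 of chow at 3 months (-7.744 against -25.41 and -21.11 on the first). Below, the libraries that stood apart are the first pair. As a check of the tissue label, hepatocyte markers summed to 58166 to 111340 CPM in every library, and none was at 0.

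At 3 months 12 of the 44 members, or 27.3%, differed between HFCF and chow livers, against 19% of all genes tested. Id3, Id1, Tgif1, Inhbc, Smad6, Tgfb2, Bmp5 and Tgfbr1 rose, and Bmp2, Bmp6, Tgfbr3 and Acvr2b fell. The 8 that rose were 18.2% of the members, against 11.5% of all genes, and the 4 that fell were 9.09%, against 7.5%. At 1 month 3 members, or 6.82%, passed the threshold against 2.04% of all genes. Inhbb fell, 2.27% of members against 1.01% of all genes, and Inhbc and Tgif1 rose, 4.55% against 1.04%. The median log2 change of the members was 0.18 at 3 months and -0.10 at 1 month, beside -0.0042 and -0.0046 for all genes. Without both libraries that stood apart, 3910 of all genes passed at 3 months, against 2802 with them. Of the members 18 did, with Tgfb3, Ltbp1, Ltbp2, Tgfbr2, Acvrl1, Acvr2a and Fst added and Smad6 lost. At 1 month 1 did, Inhbb, beside 149 of all genes. On the first principal component HFCF replicate 3 lay nearest to chow of its group, at 29.29 against 60.72 and 63.84. Leaving it out therefore favours diet calls at 3 months, and the added calls are no further support. Scaled by total library size alone, 10 members rose and 3 fell at 3 months. There 3090 of all genes passed, and the median of all genes moved to 0.127. Without chow replicate 2 or HFCF replicate 2 of 3 months, 7 members passed, and 1382 or 1255 of all genes did. Tgfb2 reached the level of the count filter in 3 libraries only when the HFCF livers of 3 months were counted, and with no filter its adjusted p was 0.0204. With a filter of a mean of at least 1 CPM, which left Tgfb2 out, 11 members passed at 3 months, 7 higher and 4 lower, beside 2632 of all genes.

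**Figure D1:**
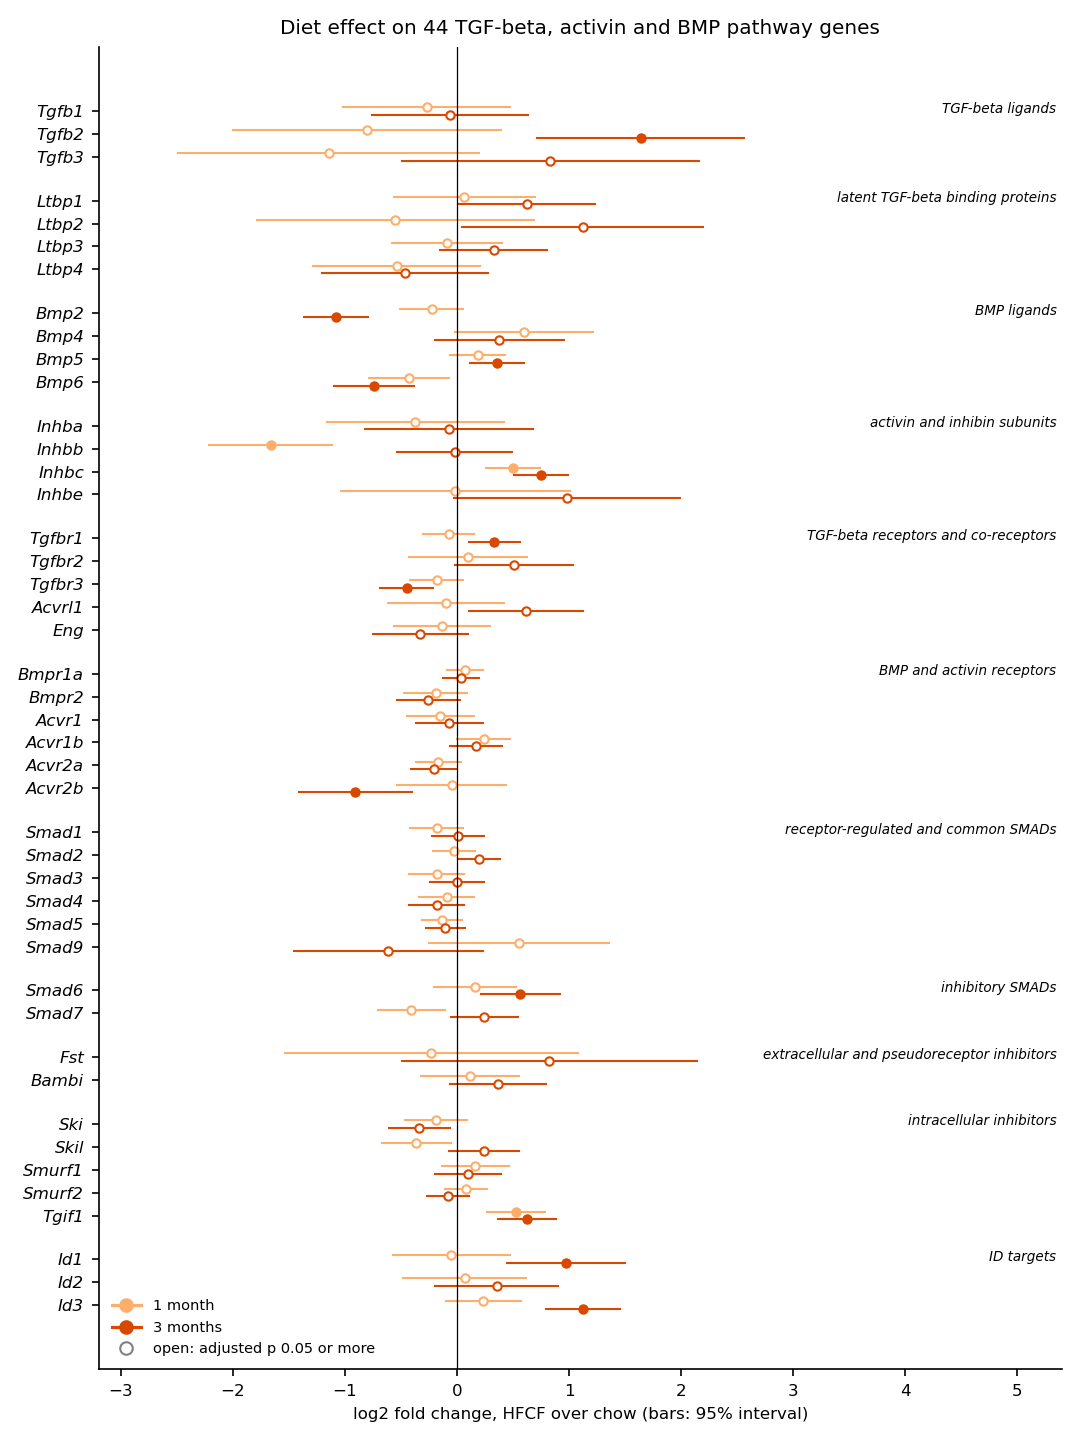
Log2 fold change of HFCF over chow for each of the 44 members, grouped by role, at 1 month (light) and 3 months (dark), n = 3 per group. Bars are 95% intervals, filled points have an adjusted p under 0.05 and open points do not. Most filled points belong to 3 months, 8 to the right of 0 and 4 to the left, and Inhbb is the only filled point to the left at 1 month.

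Promoters of called members are given here because the family's transcriptional output runs through SMAD-binding DNA. RefSeq promoters of build GRCm38.p6 were matched for 33 of the 44 members, and the window runs from 250 bases before the start site to 10 bases from it on. The letters searched on both strands were GTCTAGAC, the palindromic SMAD-binding box, CAGAC, the box with a flanking base, and GGCGCC, a GC-rich element described for BMP-regulated SMADs. These motifs can share no more than an end base with each other, and matches are in capitals. The windows of Id3, Smad6 and Inhbc, which rose at 3 months, Bmp6, which fell, and Inhbb, which fell at 1 month, read as follows.
Id3 (chr4:136143572-136143831, plus strand): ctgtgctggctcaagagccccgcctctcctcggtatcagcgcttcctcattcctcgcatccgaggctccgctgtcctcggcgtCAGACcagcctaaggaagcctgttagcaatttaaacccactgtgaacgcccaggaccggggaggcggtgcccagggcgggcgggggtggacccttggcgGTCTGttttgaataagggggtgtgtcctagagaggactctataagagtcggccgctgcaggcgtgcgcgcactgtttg
Smad6 (chr9:64022050-64022309, minus strand): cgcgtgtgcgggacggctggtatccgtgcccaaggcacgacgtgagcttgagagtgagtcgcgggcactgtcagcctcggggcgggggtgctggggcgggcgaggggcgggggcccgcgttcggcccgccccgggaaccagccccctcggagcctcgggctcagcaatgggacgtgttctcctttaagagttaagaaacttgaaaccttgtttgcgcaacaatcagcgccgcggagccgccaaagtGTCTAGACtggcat
Inhbc (chr10:127370539-127370798, minus strand): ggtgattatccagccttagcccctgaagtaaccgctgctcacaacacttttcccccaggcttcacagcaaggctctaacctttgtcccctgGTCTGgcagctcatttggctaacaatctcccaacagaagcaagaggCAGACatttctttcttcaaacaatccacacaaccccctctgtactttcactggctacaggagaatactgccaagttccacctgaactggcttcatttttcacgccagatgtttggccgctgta
Bmp6 (chr13:38345466-38345725, plus strand): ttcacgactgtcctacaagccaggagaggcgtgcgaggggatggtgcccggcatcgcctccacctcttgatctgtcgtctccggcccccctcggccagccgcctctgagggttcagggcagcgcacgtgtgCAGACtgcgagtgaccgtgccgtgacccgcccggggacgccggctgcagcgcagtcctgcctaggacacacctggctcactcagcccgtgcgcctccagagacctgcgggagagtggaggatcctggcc
Inhbb (chr1:119422239-119422498, minus strand): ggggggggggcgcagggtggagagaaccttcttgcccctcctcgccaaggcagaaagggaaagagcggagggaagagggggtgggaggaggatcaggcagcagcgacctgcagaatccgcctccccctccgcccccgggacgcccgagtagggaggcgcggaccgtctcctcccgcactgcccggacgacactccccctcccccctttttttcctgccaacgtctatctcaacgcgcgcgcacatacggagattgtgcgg
Smad6 was the only matched member with GTCTAGAC, which began 4 bases before its start site, and 58 of 32851 promoters (0.177%) hold these letters. Id3 holds CAGAC on either strand at matches that begin 167 and 68 bases before its start, Inhbc at 159 and 113, and Bmp6 at 119, while the Inhbb window holds none of the 3 motifs. The 33 members have 43 windows in the table, since some have more than 1. CAGAC was found in 21 of these windows and in 14465 of all promoters (44%), and GGCGCC in 10 windows and 9.96% of all promoters. Bmp2, Id1 and Tgfbr3 had no entry. A match describes letters in this window and is not a measured site.

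The TGF-beta ligands were low. The scarcest of them, Tgfb2, passed as higher, though it met the count filter only through the HFCF livers of 3 months. Tgfb2 (ENSMUSG00000039239 at chr1:186623186-186705992, minus strand) stood at 0.647, 0.523 and 0.225 CPM in the chow livers at 3 months and at 1.31, 2.05 and 1.1 in the HFCF livers. These groups did not overlap, and they rest on 12, 8 and 3 reads against 28, 47 and 16. Its log2 change was 1.64 ± 0.43 (adjusted p = 0.0183), a 3.11-fold difference of fitted means. Tgfb1, the form known best from macrophages and platelets, was the most abundant of the ligands per length. Its levels were 3.77, 3.27 and 4.95 CPM in chow and 4.91, 4.19 and 2.14 CPM in HFCF at 3 months. These overlapped, with a log2 difference of -0.06 ± 0.32 and a 95% interval of -0.76 to 0.63 (adjusted p = 0.915). Tgfb3 had 2.1, 2.66 and 0.897 CPM in HFCF livers at 3 months beside 1.35, 1.24 and 0.6 in chow (log2 difference 0.83 ± 0.61, adjusted p = 0.365). Its highest value of all 12 libraries was 4.71 CPM, in replicate 1 of chow at 1 month. The Tgfb2 call did not hold without chow replicate 2 (adjusted p = 0.0594), chow replicate 3 (0.0738) or HFCF replicate 2 (0.105) of 3 months.

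No latent TGF-beta binding protein, the carriers of the latent complex, passed for diet at either month in edgeR's fit of all 12 libraries. None of the 4 did by DESeq2's Wald test either, and 0 at 1 month and 2 at 3 months were at an unadjusted p under 0.05. Ltbp4 was the most abundant per length, with 31.4, 27.5 and 26.1 CPM in chow and 21.6, 22.8 and 17 in HFCF livers at 3 months. All HFCF values were below the chow values, and its log2 difference was -0.47 ± 0.33 (adjusted p = 0.357). Ltbp4 passed as lower when only the groups compared were fitted (-0.47, adjusted p = 0.0319). Ltbp2 had 0.97, 1.11 and 1.65 CPM in chow and 2.57, 4.1 and 1.17 in HFCF. Replicates 1 and 2 of HFCF were above all chow livers of that month, and replicate 3 was within their range. Its log2 difference of 1.12 ± 0.50 had an adjusted p of 0.135, and those of Ltbp1 and Ltbp3 were 0.62 ± 0.28 and 0.33 ± 0.22 (0.144 and 0.326). Without replicate 3 of HFCF, Ltbp2 (1.44, adjusted p = 0.0305) and Ltbp1 (0.82, adjusted p = 0.0455) passed.

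Among BMP ligands the 2 that drive hepcidin fell. Bmp2 (ENSMUSG00000027358 at chr2:133552159-133562885, plus strand) had 21.2, 23.7 and 24.5 CPM in chow and 12.3, 11 and 9.38 CPM in HFCF livers at 3 months. The means were 23.1 ± 1.73 and 10.9 ± 1.44 CPM (SD, n = 3), and the HFCF livers had the lowest Bmp2 of all 12 libraries. The log2 change was -1.08 ± 0.13 (adjusted p = 0.00038), the smallest adjusted p of any member in that comparison. At 1 month Bmp2 was 21, 19 and 16.2 CPM in chow and 14.5, 18.2 and 15.4 in HFCF, which overlapped (log2 difference -0.23 ± 0.13, adjusted p = 0.426). Bmp6 (ENSMUSG00000039004 at chr13:38345126-38500314, plus strand) was 10.2, 8.63 and 7.72 CPM in chow against 5.29, 5.15 and 5.52 CPM in HFCF at 3 months, with no overlap. Its log2 change was -0.74 ± 0.17 (adjusted p = 0.00801). At 1 month its levels were 9.17, 7.57 and 7.93 CPM and 4.75, 7.08 and 6.55 CPM, again without overlap, and the log2 difference of -0.43 ± 0.17 did not pass (adjusted p = 0.214). The Bmp6 exons overlap those of Txndc5 on the opposite strand, and which strand was counted is not given in the sources used here; Txndc5 had a log2 difference of 0.22 (adjusted p = 0.107).

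Bmp5 went the other way. It stood at 16, 17.1 and 14.4 CPM in chow and 19.5, 21.3 and 20.001 CPM in HFCF livers at 3 months (ENSMUSG00000032179 at chr9:75775364-75900310, plus strand). The 3 HFCF livers were the highest of all 12, with a small log2 change of 0.35 ± 0.11 (adjusted p = 0.0406). Bmp4 was scarce, at 1.67, 1.57 and 1.42 CPM in chow and 1.78, 2.84 and 1.38 in HFCF, and its log2 difference was 0.38 ± 0.27 (adjusted p = 0.345). The calls of Bmp2 and Bmp6 held without each of the 6 libraries compared. That of Bmp5 was lost without any of them (adjusted p = 0.0525 to 0.154) and without replicate 2 of chow at 1 month (0.0508), which enters through the shared spread.

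The inhibin and activin subunits split by gene. Inhbc (ENSMUSG00000025405 at chr10:127356328-127370544, minus strand), which encodes the activin C subunit and is made mainly by hepatocytes, rose at both months. It was 12.7, 14.4 and 15.7 CPM in chow and 20.6, 20.9 and 18.8 CPM in HFCF livers at 1 month. At 3 months it was 14.9, 13.6 and 14.7 CPM in chow and 24.7, 21.1 and 26.9 CPM in HFCF. All 6 HFCF livers were above all 6 chow livers. The log2 changes were 0.50 ± 0.11 at 1 month (adjusted p = 0.0401) and 0.75 ± 0.11 at 3 months (adjusted p = 0.00106). The call at 1 month was lost without any 1 of the 6 libraries compared (adjusted p = 0.0504 to 0.17), and without replicate 2 or 3 of chow or replicate 1 of HFCF of 3 months (0.0548, 0.0569 and 0.0629). That at 3 months held without each of the 6 libraries compared.

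Inhbb (ENSMUSG00000037035 at chr1:119415465-119422248, minus strand) encodes the subunit of activin B, a ligand that in mice also feeds the hepcidin response to inflammation. It had 12, 6.45 and 7.79 CPM in chow and 2.85, 2.27 and 3.14 CPM in HFCF livers at 1 month. The groups did not overlap, and Inhbb fell by 1.66 ± 0.26 on the log2 scale (adjusted p = 0.00744), a call that held without each of the 6 libraries compared. At 3 months it had 5.33, 6.15 and 7.42 CPM in chow and 5.38, 7.94 and 5.1 CPM in HFCF. Those groups overlapped, and the log2 difference was -0.02 ± 0.24 with a 95% interval of -0.54 to 0.49 (adjusted p = 0.965). Inhbe, the activin E subunit and another hepatocyte product, lies next to Inhbc and was the most abundant member of this role per length. It was 22, 28.6 and 44.5 CPM in chow and 47, 77.8 and 62.2 CPM in HFCF at 3 months. The HFCF values were all above the chow values, yet both groups were spread widely and the log2 difference of 0.98 ± 0.45 did not pass (adjusted p = 0.16). Inhba, the activin A subunit, was between 0.754 and 2.03 CPM in all 12 livers (log2 difference -0.07 ± 0.35 at 3 months, adjusted p = 0.911).

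**Figure D2:**
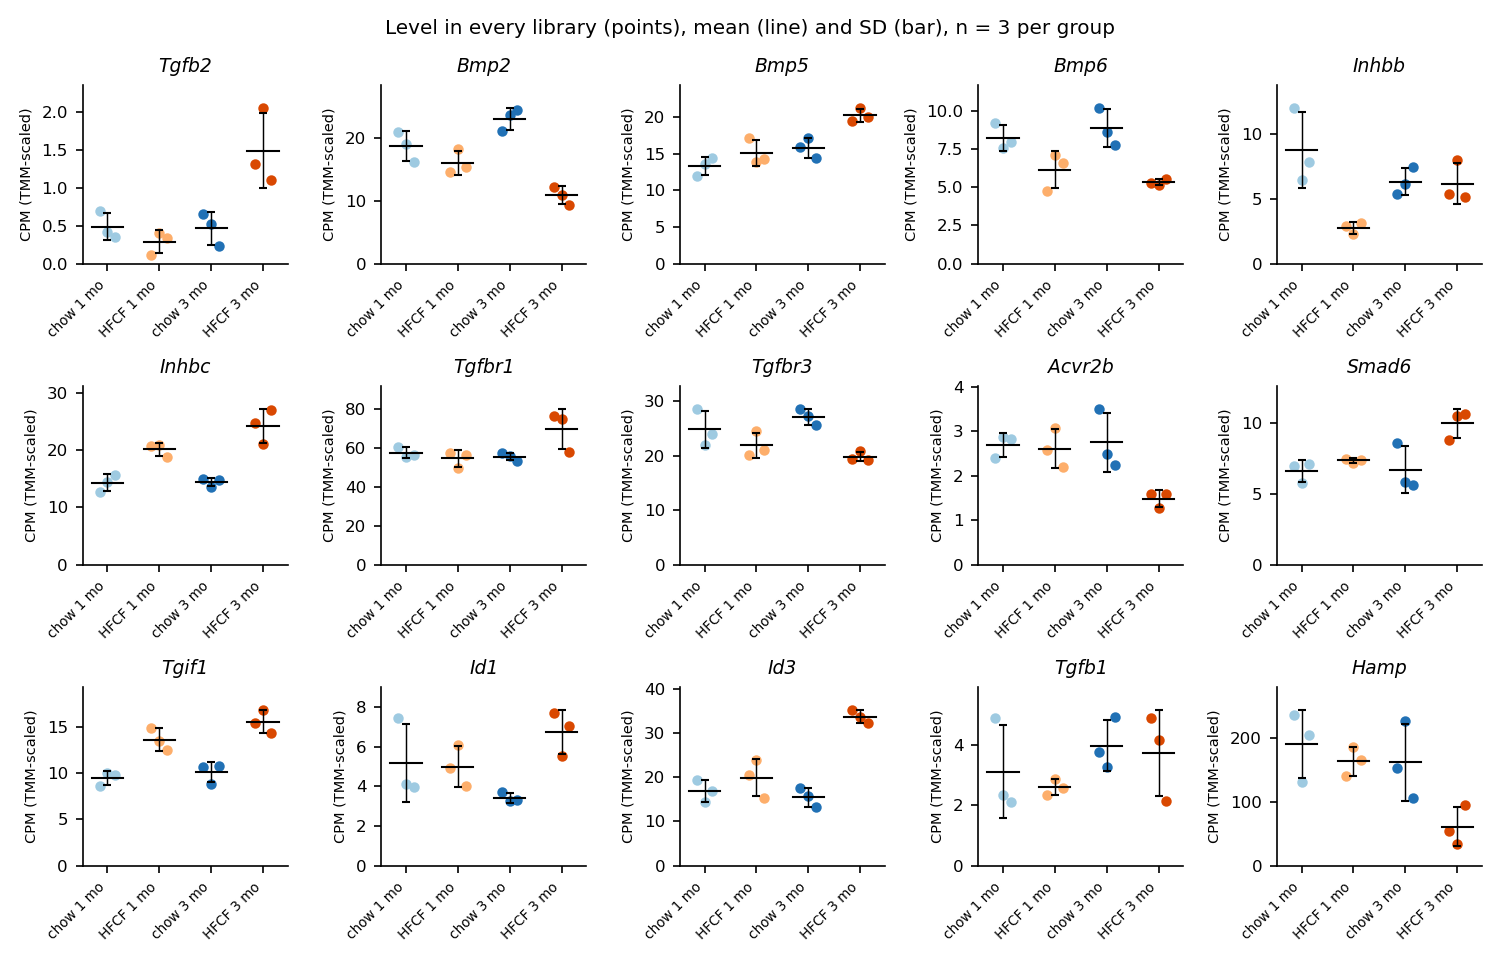
CPM in every library for the 12 members called at 3 months, Inhbb (called at 1 month), Tgfb1 and the hepcidin gene Hamp, by group. Points are libraries, lines are means and bars are SD, n = 3, and each axis starts at 0. Id3 and Bmp2 in HFCF livers at 3 months lie outside the range of the other 9 libraries, Inhbc and Tgif1 separate the diets at both months, and Inhbb is low in HFCF livers at 1 month.

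Of the receptors of TGF-beta, the type I receptor rose and the co-receptor betaglycan fell. Tgfbr1 (ENSMUSG00000007613 at chr4:47353222-47414931, plus strand) had 57.2, 55.9 and 53.4 CPM in chow and 76.4, 75 and 58.1 CPM in HFCF livers at 3 months. Replicates 1 and 2 of HFCF were well above chow, whereas replicate 3 was within 1 CPM of the highest chow liver of that month. The log2 change was 0.33 ± 0.10 (adjusted p = 0.0402). Tgfbr2, the type II receptor, had 39.9, 43.9 and 38.8 CPM in chow and 68.8, 71.1 and 34.1 CPM in HFCF. Replicates 1 and 2 of HFCF were above chow and replicate 3 was below it. Its log2 difference was 0.51 ± 0.24 (adjusted p = 0.161) and 0.77 without HFCF replicate 3 (adjusted p = 0.00148). Tgfbr3, or betaglycan (ENSMUSG00000029287 at chr5:107106570-107289629, minus strand), presents TGF-beta2 and inhibins to the signalling receptors. It had 28.5, 27.2 and 25.6 CPM in chow and 19.4, 20.9 and 19.2 CPM in HFCF, without overlap, and a log2 change of -0.45 ± 0.11 (adjusted p = 0.0133). The Tgfbr1 call was kept only without replicate 3 of HFCF. It was lost without the other 5 libraries compared, with adjusted p of 0.0683 to 0.161, and without replicate 3 of chow at 1 month (0.0554). That of Tgfbr3 was lost without HFCF replicate 1 (0.0537) and under scaling by total library size alone (0.0669).

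Eng, or endoglin, and Acvrl1, or ALK1, form the endothelial branch that binds BMP9. Eng was the most abundant of these receptors per length, at 51.2, 60.9 and 42.5 CPM in chow and 45.5, 44.2 and 33.2 CPM in HFCF at 3 months. The ranges overlapped, and the log2 difference was -0.33 ± 0.19 (adjusted p = 0.261). Its exons overlap Fpgs on the opposite strand, which fell by 0.48 on the log2 scale (adjusted p = 0.0304). Acvrl1 had 4.26, 4.77 and 6.52 CPM in chow and 8.79, 7.81 and 7.03 CPM in HFCF. These did not overlap, and the log2 difference of 0.62 ± 0.24 did not pass (adjusted p = 0.0841); it did without both libraries that stood apart (0.0356), under total library size alone (0.0376) and with only the groups compared (0.0488).

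Among the BMP and activin receptors, 1 of 6 passed. Acvr2b (ENSMUSG00000061393 at chr9:119402444-119433501, plus strand), a type II receptor for activins and BMPs, had 3.5, 2.48 and 2.25 CPM in chow and 1.59, 1.27 and 1.59 CPM in HFCF livers at 3 months. The HFCF livers were the lowest of all 12, on 34, 29 and 23 reads. The log2 change was -0.91 ± 0.24 (adjusted p = 0.0172). The more abundant type II receptors Bmpr2 and Acvr2a had log2 differences of -0.26 ± 0.13 and -0.21 ± 0.09 (adjusted p = 0.19 and 0.126). Bmpr2, the highest of this role per length, was 34.6, 35.7 and 31.4 CPM in chow and 32.4, 27.9 and 24.8 CPM in HFCF, and the ranges overlapped. The type I receptor Bmpr1a, which carries BMP signals in hepatocytes, had the narrowest interval of the receptors, with a log2 difference of 0.04 ± 0.07 and a 95% interval of -0.12 to 0.19. The type I receptors Acvr1 and Acvr1b were at -0.07 ± 0.14 and 0.17 ± 0.11 (adjusted p = 0.763 and 0.291). The Acvr2b call was lost without chow replicate 1 (adjusted p = 0.0794) or HFCF replicate 2 (0.0862), and kept without the other 4 libraries compared.

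None of the 6 receptor-regulated and common SMADs passed for diet at either month in edgeR's fit of all 12 libraries or by DESeq2's Wald test, with 0 at an unadjusted p under 0.05 at 1 month and 1 at 3 months. Smad4, the common partner and the most abundant of them per length, had 34.5, 40.7 and 32.6 CPM in chow and 32.5, 28.3 and 34.3 CPM in HFCF at 3 months, with a log2 difference of -0.18 ± 0.11 (adjusted p = 0.279). Smad2 and Smad3 were at 0.20 ± 0.09 and -0.0034 ± 0.11, and Smad1 and Smad5 at 0.01 ± 0.11 and -0.11 ± 0.08. The 95% intervals of these 5 SMADs lay between -0.43 (Smad4) and 0.38 (Smad2) on the log2 scale. Smad9 varied more between livers, from 5.80 to 23.9 CPM, and its log2 difference was -0.61 ± 0.38 (adjusted p = 0.288). At 3 months Smad9 passed as lower when only the groups compared were fitted (-0.62, adjusted p = 0.035), and Smad2 passed as higher under total library size alone (0.33, adjusted p = 0.028).

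Of the inhibitory SMADs, which switch the receptors off, Smad6 rose. Smad6 (ENSMUSG00000036867 at chr9:63953146-64022059, minus strand), the one aimed chiefly at BMP receptors, had 8.62, 5.88 and 5.62 CPM in chow and 8.84, 10.5 and 10.7 CPM in HFCF livers at 3 months. The groups met closely, since chow replicate 1 was just under HFCF replicate 1. The log2 change was 0.57 ± 0.17 (adjusted p = 0.03). Smad7, which also blocks TGF-beta receptors, had 9.27, 8.43 and 7.2 CPM in chow and 10.2, 9.34 and 10.1 CPM in HFCF (log2 difference 0.24 ± 0.14, adjusted p = 0.237). At 1 month Smad7 was 12, 9.68 and 11.3 CPM in chow and 8.28, 9.35 and 7.16 CPM in HFCF (-0.41 ± 0.14, adjusted p = 0.162). The Smad6 call was lost without chow replicate 2 (adjusted p = 0.131) or 3 (0.119), without HFCF replicate 2 (0.109) or 3 (0.0558), when only the groups compared were fitted (0.0626), and without both libraries that stood apart (0.0578).

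Other inhibitors of the pathway were mostly below the threshold, except the corepressor Tgif1. Tgif1 (ENSMUSG00000047407 at chr17:70844205-70853546, minus strand), which binds SMAD2 and represses TGF-beta targets, had 8.6, 10.03 and 9.85 CPM in chow and 14.9, 13.6 and 12.5 CPM in HFCF at 1 month. At 3 months it had 10.7, 8.89 and 10.8 CPM in chow and 15.5, 16.9 and 14.4 CPM in HFCF. All 6 HFCF livers exceeded all 6 chow livers, by 0.53 ± 0.12 on the log2 scale at 1 month (adjusted p = 0.0431) and 0.63 ± 0.12 at 3 months (adjusted p = 0.00373). The related corepressors Ski and Skil had log2 differences of -0.34 ± 0.13 and 0.24 ± 0.15 at 3 months (adjusted p = 0.0775 and 0.266). The ubiquitin ligases Smurf1 and Smurf2, which mark receptors and SMADs for decay, were at 0.09 ± 0.14 and -0.08 ± 0.09. Smurf2, the highest of this role per length, was 65, 65.2 and 67.9 CPM in chow and 63.1, 59.1 and 64.9 CPM in HFCF. Follistatin (Fst), which traps activin, ranged from 1.05 to 6.22 CPM over the 12 livers, with 3.23, 1.9 and 1.05 in chow and 5, 4.84 and 1.1 in HFCF at 3 months (0.82 ± 0.60, adjusted p = 0.363). The pseudoreceptor Bambi had a log2 difference of 0.37 ± 0.20 (adjusted p = 0.221). The Tgif1 call at 1 month was kept among the 6 libraries compared only without HFCF replicate 3. It was lost without the other 5 (adjusted p = 0.0664 to 0.178) and without 4 libraries of 3 months, chow replicates 1 and 3 and HFCF replicates 1 and 2 (0.0517 to 0.0688), and that at 3 months held without each of the 6 compared.

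The ID genes encode inhibitors of basic helix-loop-helix factors and are the usual readout of BMP and SMAD1/5/9 activity. Id3 (ENSMUSG00000007872 at chr4:136143497-136145755, plus strand) had 17.6, 15.7 and 13.3 CPM in chow and 35.4, 33.8 and 32.3 CPM in HFCF livers at 3 months. Every HFCF liver at 3 months was above all 9 other livers, whose highest was 23.9 CPM. Means were 15.5 ± 2.15 and 33.8 ± 1.51 CPM (SD, n = 3), and the log2 change was 1.12 ± 0.15 (adjusted p = 0.000609). Id1 (ENSMUSG00000042745 at chr2:152736251-152737410, plus strand) had 3.72, 3.27 and 3.3 CPM in chow and 7.72, 5.54 and 7.03 CPM in HFCF, with a log2 change of 0.97 ± 0.24 (adjusted p = 0.0147). The groups did not overlap, although at 1 month replicate 1 of chow, which stood apart, reached 7.47 CPM and replicate 2 of HFCF 6.08 CPM. Id2 was the most abundant member per length and was less even, with 75.7, 64.9 and 85.8 CPM in chow and 88.4, 77.4 and 124 CPM in HFCF (log2 difference 0.35 ± 0.25, adjusted p = 0.349). At 1 month the ID genes had log2 differences of -0.05 ± 0.24 (Id1), 0.07 ± 0.25 (Id2) and 0.24 ± 0.15 (Id3), and none passed by edgeR or DESeq2's Wald test or was at an unadjusted p under 0.05. The Id3 call held without each of the 6 libraries compared, and that of Id1 was lost without chow replicate 2 (adjusted p = 0.0596) or HFCF replicate 1 (0.062).

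Some cell type markers moved in the same livers. The background of the counts of markers is the 11.5% of all genes that rose and the 7.5% that fell at 3 months. The endothelial and Kupffer cell counts are near it. At 3 months hepatocyte markers summed to 91445 to 94241 CPM in chow and 58166 to 75524 CPM in HFCF, and 6 of 11 fell. Recruited macrophage markers summed to 128 to 188 CPM in chow and to 525, 502 and 240 CPM in HFCF replicates 1, 2 and 3, and 9 of 11 rose. Stellate cell markers summed to 556 to 710 CPM and 703 to 967 CPM, with 4 of 12 higher and 1 lower, and endothelial markers to 505 to 521 CPM and 553 to 560 CPM, with 2 of 12 higher. Kupffer cell markers summed to 456 to 486 CPM and 537 to 712 CPM, with 1 of 8 higher and 1 lower. Cholangiocyte markers summed to 31.8 to 44.6 CPM in chow and 218, 224 and 61.5 CPM in HFCF, where 1 of 5 tested, Spp1, rose. Spp1 alone was at log2 ratios of 2.73, 2.78 and 0.85 to the chow mean in HFCF replicates 1, 2 and 3. The shift of this sum thus cannot be told apart from that of Spp1, which is also on the TGF-beta response list. T and NK cell markers stayed at 2.28 to 3.27 CPM in HFCF, 0 of 2 tested passing. B cell markers summed to 4.42 to 12.1 CPM in chow and 35.9, 10.3 and 5.86 CPM in HFCF, with 1 of 4 tested rising. Neutrophil markers summed to 0.654 to 1.67 CPM in chow and 2.28 to 3.65 CPM in HFCF, with 2 of 2 tested rising. Mesothelial markers summed to 3.2 to 9.7 CPM in chow and 6.17, 21.0 and 6.0 CPM in HFCF, with 0 of 5 tested rising. Whether any marker met the count filter only through the HFCF livers of 3 months was not checked. No marker in the table was at 0 in all libraries. In whole liver, fewer cells of a type and less RNA per cell cannot be told apart, and the part of these shifts in the members' changes was not tested.

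The HFCF livers at 3 months differed in how far these markers moved, and the members' values in each are given beside them. Relative to the chow mean of that month, Id3 was at log2 ratios of 1.19, 1.12 and 1.06 in replicates 1, 2 and 3, and Bmp2 at -0.92, -1.08 and -1.30. Inhbc was at 0.78, 0.55 and 0.90, and Bmp6 at -0.74, -0.78 and -0.68. Replicate 3 had the lowest macrophage sum of the group, and the lowest cholangiocyte sum, in which Spp1 was the only called gene. Tgfbi, a TGF-beta response gene, was at 0.99, 1.06 and 0.55, and Thbs1, an activator of latent TGF-beta, at 2.80, 2.98 and 1.06, with replicate 3 nearest to chow. Over all 12 called members replicate 3 was nearest to chow in 5, namely Tgfb2, Bmp6, Tgfbr1, Tgif1 and Id3, at 1.49, 2.14 and 1.25 for Tgfb2, 0.61, 0.74 and 0.51 for Tgif1 and 0.46, 0.43 and 0.07 for Tgfbr1. It was nearest in 11 of 11 called activator and response genes, among them Timp1 and Adam12, which passed the count filter only through this group. How often replicate 3 was nearest over all called genes was not counted. These counts therefore have no background, and no difference between members and response genes can be read from them. On the first principal component replicate 3 stood at 29.29, nearer to the chow livers than replicates 1 and 2 (60.72 and 63.84).

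**Figure D3:**
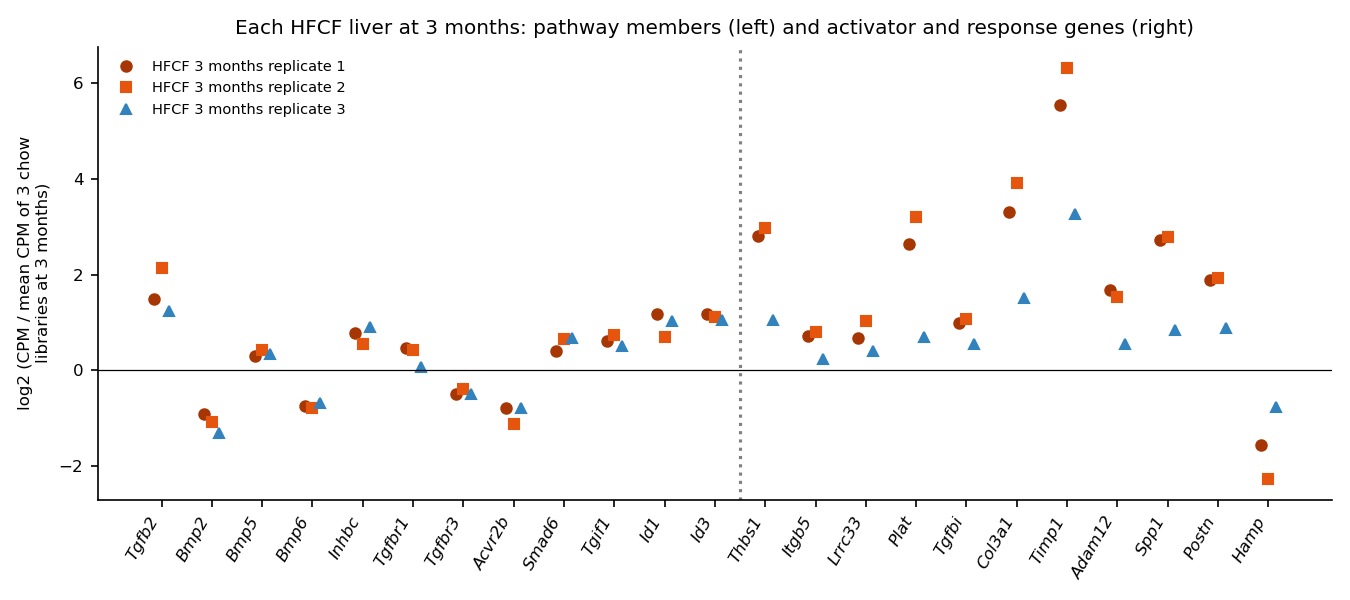
Log2 ratio of each HFCF liver at 3 months to the mean of the 3 chow livers of that month, for the 12 called members (left of the dotted line) and for called activator and response genes, with Hamp last (right). Each point is 1 library, and replicate 3 is the triangle. On the right the triangle is nearest to 0 for each gene, and on the left it is nearest for 5 of 12 members, with Tgfbr1 at 0.07. The share over all called genes was not counted, so the sides cannot be compared by these counts.

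Other pathway genes outside the 44 were listed by role, also with earlier results known, and 75 of 79 found were tested. At 3 months 16 rose and 4 fell, 21.3% and 5.33% of them, against 11.5% and 7.5% of all genes. The 16 include Timp1 and Adam12, which met the count filter only through the HFCF livers of 3 months, so this share is raised by them. With a filter of a mean of at least 1 CPM, which left both out, 14 rose and 4 fell, beside 2632 of all genes called. The 11.5% and 7.5% of all genes are also the background of the counts by role. Under total library size alone 23 rose and 2 fell, beside 3090 of all genes called. The count of 20 became 7 without HFCF replicate 2, 9 without HFCF replicate 1 or chow replicate 2 and 11 without chow replicate 3. It became 32 without both libraries that stood apart. All genes called moved as well, from 2802 to 1255 without HFCF replicate 2 and 1478 without HFCF replicate 1. They were 1382 and 1776 without chow replicates 2 and 3, and 3910 without both libraries that stood apart. Among 17 tested TGF-beta response genes 6 rose and 0 fell. The protease inhibitor Timp1 had 1 read in each chow liver, 0.0539, 0.0654 and 0.075 CPM, and 65, 119 and 9 reads, 3.04, 5.19 and 0.621 CPM, in HFCF. Timp1, Adam12 and Lox reached the level of the count filter in 3 libraries only when the HFCF livers of 3 months were counted, so no p is given for them. Among the other 14 response genes 4 rose and 0 fell, that is 28.6% against 11.5% of all genes. Tgfbi, a matrix protein named for its induction by TGF-beta, had 58.4, 45.2 and 56.8 CPM and 106, 112 and 78.1 CPM (0.88 ± 0.14, adjusted p = 0.00119). The matrix genes Col3a1, Spp1 and Postn also rose, and the protease Adam12 was counted among the 6. The Col3a1 call was lost without chow replicate 2 or 3 or HFCF replicate 2 of 3 months (adjusted p = 0.0607 to 0.0685). That of Adam12 was lost without 9 of the 12 libraries and under 5 of 9 other alternatives: DESeq2 size factors, DESeq2's Wald test, no filter, limma-voom and the replicate block. Ctgf, another textbook target, did not pass, at 21.4, 20.3 and 5.62 CPM in chow and 14.2, 24 and 7.31 CPM in HFCF (-0.05 ± 0.53, adjusted p = 0.961). The macrophage, stellate and cholangiocyte sums above moved with these genes, and their part was not tested. The lists overlap, since Spp1 is also a cholangiocyte marker and Col1a1 and Acta2 are also stellate markers. Dcn, an extracellular inhibitor below, is a stellate marker as well. These sums are therefore not independent of the genes they are set beside.

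Among latent TGF-beta activators 4 of 8 rose at 3 months and 0 fell. Thrombospondin 1 (Thbs1), which releases TGF-beta from its latent complex, had 2.8, 1.63 and 2.32 CPM in chow and 15.7, 17.8 and 4.69 CPM in HFCF (2.50 ± 0.50, adjusted p = 0.00732). The integrin subunit Itgb5 changed by 0.60 ± 0.13 (adjusted p = 0.00773), and Lrrc33, which anchors latent TGF-beta on macrophages, by 0.73 ± 0.16 (adjusted p = 0.00788). Plat, the tissue plasminogen activator, rose as well. The Plat call was lost without chow replicate 2 or 3 or HFCF replicate 1 or 2 of 3 months (adjusted p = 0.0606 to 0.0841). The Lrrc33 call was lost without HFCF replicate 2 (adjusted p = 0.051).

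Extracellular inhibitors outside the 44 gave 4 rises and 0 falls among 10. Htra1, a secreted protease, changed by 1.49 ± 0.38 (adjusted p = 0.0168), Fstl1 by 1.79 ± 0.43 (0.0185) and the TGF-beta-binding proteoglycan Dcn by 0.59 ± 0.17 (0.0304), and Twsg1, a BMP-binding protein, also rose. Each of the calls of Htra1, Fstl1, Dcn and Twsg1 was lost without chow replicate 2 or 3 or HFCF replicate 1 or 2 of 3 months, with adjusted p of 0.0548 to 0.149. Of 9 other ligands, Bmp1, in fact a procollagen protease, fell by 0.71 ± 0.12 on the log2 scale (adjusted p = 0.00196), and Bmp7 rose by 1.34 ± 0.33 (0.0131). The Bmp7 call was lost without chow replicate 3 (0.051) or HFCF replicate 1 (0.0745). Of 18 other intracellular regulators, Zfyve16, an endosomal SMAD scaffold, rose by 0.35 ± 0.11 (0.038), and the ubiquitin ligase Nedd4l and the coactivator Ep300 changed by -0.68 ± 0.21 and -0.36 ± 0.11 (0.039 and 0.0355). The Zfyve16 call held only without chow replicate 3 of the 6 libraries compared, that of Nedd4l only without chow replicate 1, and that of Ep300 only without chow replicate 3 or HFCF replicate 1. Their highest adjusted p were 0.141, 0.125 and 0.138, and Nedd4l was also lost without replicate 3 of chow at 1 month (0.0527). None of 5 other receptors passed edgeR's test at 3 months, and 1 was at an unadjusted p under 0.05.

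Of the BMP response genes outside the 44, Hamp fell. Hamp, the hepcidin gene, had 153, 226 and 105 CPM in chow and 54.4, 33.5 and 94.8 CPM in HFCF livers at 3 months, with no overlap. It fell by 1.41 ± 0.40 on the log2 scale (adjusted p = 0.0376), and was the only 1 of 8 tested to pass. Its near-identical neighbour Hamp2 makes its count less certain. The ligands Bmp2 and Bmp6 and the target Hamp were lower in the same livers in which the targets Id1, Id3 and Smad6 were higher. Liver by liver the order differed. Hamp was at log2 ratios to the chow mean of -1.57, -2.27 and -0.77 in replicates 1, 2 and 3, Bmp2 at -0.92, -1.08 and -1.30, and Bmp6 at -0.74, -0.78 and -0.68. A link between them was not tested. Hamp is made by hepatocytes, and 6 of 11 hepatocyte markers fell in these livers. The part of the hepatocyte shift in the Hamp change was not tested. Its call was lost without chow replicate 1 (0.0694) or 2 (0.126) or HFCF replicate 1 (0.121) or 2 (0.105), and, through the shared spread, without replicate 3 of chow or any replicate of HFCF at 1 month (0.0509 to 0.0549).

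At 1 month 1 of the 75 other pathway genes passed, a count near the background, since 2.04% of all genes passed and 1.04% were higher. Nrp1, a co-receptor that also binds TGF-beta, had 69.5, 106 and 105 CPM in chow and 183, 137 and 143 CPM in HFCF (0.72 ± 0.16, adjusted p = 0.0365). The groups did not overlap. The call was lost without chow replicate 1 (0.117) or 3 (0.0736), HFCF replicate 1 (0.155) or 3 (0.0519) and, among livers of 3 months, without chow replicate 2 or 3 or HFCF replicate 1 (0.0503 to 0.0589).

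Whether the diet effect differed between the months was tested as the difference of the 2 log2 changes. No member passed, against 0.0407% of all genes (0.0204% higher and 0.0204% lower), and 12 were at an unadjusted p under 0.05. The lowest adjusted p were those of Inhbb and Bmp2. For Inhbb the difference was 1.64 ± 0.35 (adjusted p = 0.0934), between log2 values of -1.66 at 1 month and -0.02 at 3 months. For Bmp2 it was -0.86 ± 0.19 (adjusted p = 0.0934) and for Id3 0.89 ± 0.22 (adjusted p = 0.105). With DESeq2's Wald test these 3 genes passed, at adjusted p of 0.00519, 0.00945 and 0.0232. Under that test 367 of all genes passed, against 6 in edgeR. Without HFCF replicate 3 of 3 months 878 of all genes passed, and 6 members were among them: Inhbb (0.0154), Bmp2 (0.0283), Id3 (0.0368), Tgfb2 (0.0498), Tgfbr1 (0.0266) and Skil (0.0369).

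Between the months within a diet, the HFCF livers changed in 9 members, or 20.5%, against 16.2% of all genes, and this comparison shares the HFCF livers at 3 months with the diet comparison. The 6 that rose, 13.6% against 9.25%, were Tgfb2, Ltbp2, Bmp5, Inhbb, Tgfbr1 and Id3, and the 3 that fell, 6.82% against 6.95%, were Bmp2, Acvr2b and Smad9. Scaled by total library size alone, 16 rose and 1 fell. There 3907 of all genes passed, and the median of all genes moved from 0.0176 to 0.22. Tgfb2 changed by 2.42 ± 0.47 from 0.112, 0.401 and 0.341 CPM at 1 month (adjusted p = 0.0059), on 2, 6 and 5 reads. As said above, Tgfb2 met the count filter only through the HFCF livers of 3 months, so the share that rose is raised by it. With a filter of a mean of at least 1 CPM, which left Tgfb2 out, 5 members rose and 3 fell, beside 2290 of all genes. Id3 changed by 0.76 ± 0.15 (adjusted p = 0.00618), Inhbb by 1.16 ± 0.26 (0.0103) and Bmp2 by -0.56 ± 0.13 (0.0143). Bmp5, Tgfbr1 and Acvr2b changed by 0.42 ± 0.11, 0.36 ± 0.10 and -0.82 ± 0.24 (0.0228, 0.0334 and 0.031).

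In the fit of all 12 libraries Smad9 and Ltbp2 passed in this comparison alone. Smad9, a BMP-regulated SMAD, went from 11.5, 22 and 23.9 CPM at 1 month to 7.11, 5.8 and 9.03 CPM at 3 months in HFCF livers, without overlap (log2 difference -1.39 ± 0.37, adjusted p = 0.0307). The chow livers had 6.97, 20.2 and 11.7 CPM at 1 month and 11.3, 11.6 and 10.3 CPM at 3 months. Ltbp2 went from 1.29, 0.267 and 0.819 CPM to 2.57, 4.1 and 1.17 CPM, which overlapped (1.72 ± 0.52, adjusted p = 0.0411). The count of 9 called members became 2 without replicate 2 of 3 months, 4 without replicate 1, and 5 without replicate 2 or 3 of 1 month. All genes called went from 2385 to 732, 898, 2031 and 1157 in the same order. The call of Id3 held without each of the 6 HFCF livers. That of Tgfb2 did too, but Tgfb2 entered the test only through the livers of 3 months, so this is no support. Those of Bmp2 (0.0581) and Inhbb (0.0579) were lost without replicate 2 of 3 months. Those of Bmp5, Tgfbr1, Smad9, Acvr2b and Ltbp2 were lost without replicate 1 or 2 of 3 months and without 2 of the 3 livers of 1 month, replicates 1 and 2 for Acvr2b and 2 and 3 for the others. Without replicate 2 of 3 months these 5 had adjusted p of 0.0973 (Bmp5), 0.134 (Tgfbr1), 0.137 (Smad9), 0.14 (Acvr2b) and 0.182 (Ltbp2). Through the shared spread, Tgfbr1 was also lost without replicate 2 of chow at 3 months (0.0527), and Ltbp2 without that library (0.0583), the other chow livers of 3 months or chow replicate 3 of 1 month.

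In chow livers no member differed between the months, against 0.00679% of all genes, and 7 were at an unadjusted p under 0.05. Skil had the smallest p, going from 56.5, 39.3 and 53.1 CPM to 27.2, 29.9 and 31.6 CPM. These groups did not overlap, and the log2 difference was -0.75 ± 0.15 (adjusted p = 0.131). It passed by DESeq2's Wald test (adjusted p = 0.00318) and without replicate 2 of chow at 1 month (0.0416).

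Compared per length, as CPM per kilobase of gene model, the members spanned a wide range in chow livers. Id2 was highest at 56.9, followed by Inhbe at 14.1, Eng at 12.5 and Smurf2 at 10.5 (means of 6 chow livers). Tgfb2 was lowest at 0.0981, below Ltbp2 at 0.148 and Tgfb3 at 0.499, and Tgfb1 stood at 1.39. The receptors Tgfbr1 and Tgfbr2, at 8.64 and 4.93, were above each TGF-beta ligand. Bmp2 led the BMP ligands at 5.89, before Bmp5 at 3.62, Bmp6 at 2.38 and Bmp4 at 0.602. In HFCF livers at 3 months this order changed: Bmp5 stood at 5.04, Bmp2 at 3.06 and Bmp6 at 1.48. In the same livers Id3 was at 18.9 and Inhbc at 12.3, against 8.66 and 7.32 in chow of that month.

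**Figure D4:**
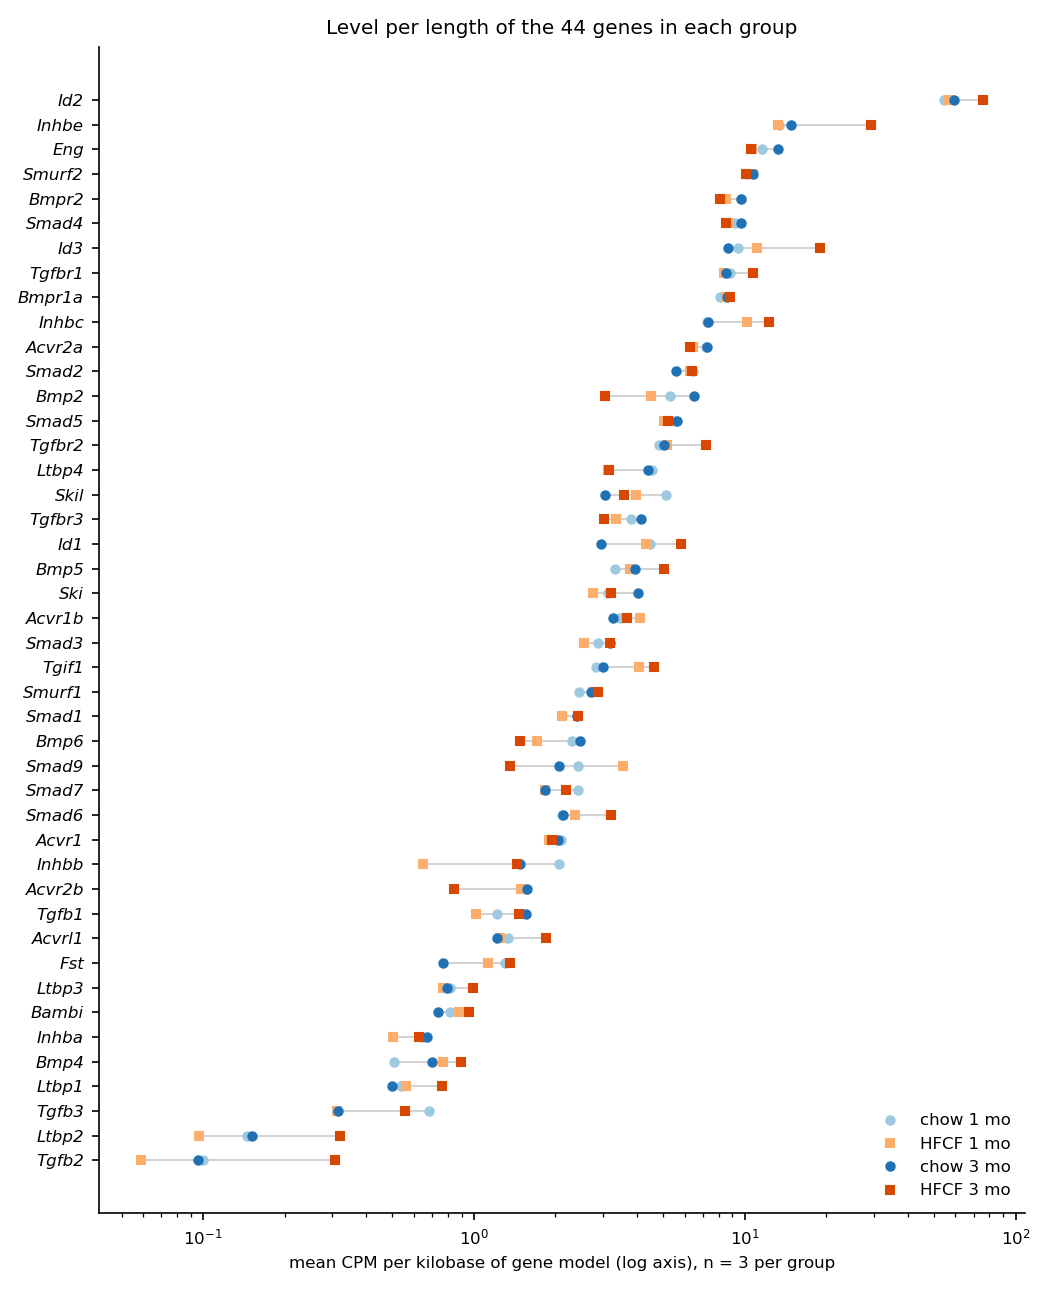
Mean CPM per kilobase of gene model of the 44 members in each group on a log axis, n = 3 per group, ordered by the mean of the chow livers. Circles are chow and squares HFCF, light for 1 month and dark for 3 months. Id2 is highest and Tgfb2 lowest, and the squares of Inhbe, Id3 and Inhbc at 3 months lie to the right of their circles while that of Bmp2 lies to the left.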

How the data were processed

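Livers were flash-frozen, RNA was extracted with Trizol, and stranded TruSeq libraries were made after Ribo-Zero Gold depletion, per the labels' protocols. The authors deposited raw counts per gene on build mm10, per the submitters' processing notes. Which aligner and counter were used, and on which strand, is not given in the sources used here. FPKM values, log2 ratios and adjusted-p scores of the authors are in the same deposited table and were not used here. The other deposited column, bases of each gene model (Total BPs per the file headers), gave the level per length.

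Tests used edgeR 4.0.16 with limma 3.58.1, run under R 4.3.3. The filter filterByExpr kept 14725 of 16035 genes, libraries were scaled by TMM (factors 0.921 to 1.14), and a robust quasi-likelihood model with a mean for each of 4 groups, fitted to all 12 libraries, gave each comparison, with Benjamini-Hochberg adjustment and a threshold of 0.05. The SE is the log2 change divided by the square root of F, and intervals are 95%. Scripts were tested on simulated data. The members and gene lists were chosen with earlier results of these data known, and the lists outside the members come from textbook knowledge; 1 response gene is not reported here and is in no count of them. Every member is named. Full values are given for members past the threshold in any comparison and for the highest per length in each role. Other pathway genes past the threshold for diet have values for at most 3 per list. Alternatives were DESeq2 1.42.0 size factors and Wald test, total library size alone, limma-voom, other filters, robust estimation off, a replicate block, only the groups compared, and leaving out each library or both that stood apart. No pair of libraries in a group was a duplicate (chi-square per gene 12.45 to 62). Of the members, 16 have exons that overlap another gene in GENCODE M21, among them Tgfb2, Bmp5, Bmp6, Inhbc, Tgfbr3 and Eng, and their counts are less certain. Figures were drawn with matplotlib 3.10.9.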

Additional observations from a re-analysis of the deposited data

How the results depend on the processing

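No called value of a member or other pathway gene changed sign under any alternative run. Of 32 called values at 3 months, recomputed 699 times, 594 kept their call; of 4 at 1 month, recomputed 88 times, 51 did; and of 28 between the months in HFCF, recomputed 612 times, 486 did. The other recomputed values of these were no longer past the threshold. With HFCF replicate 1 or 2 of 3 months left out, Timp1 fell under the count filter. Leaving out each library gave 7 to 14 called members at 3 months, 1 to 3 at 1 month, 0 to 6 for the difference of the diet effects, 0 to 1 for chow and 2 to 10 for HFCF between the months. Other pathway genes ranged from 7 to 28, 0 to 1 and 0 to 13. All genes called ranged from 1255 to 3631 at 3 months, 65 to 396 at 1 month and 0 to 878 for the difference. They ranged from 1 to 8 for chow and 732 to 3562 for HFCF between the months. The 7 at 3 months came without chow replicate 2 (3 higher, 4 lower) and without HFCF replicate 2 (4 higher, 3 lower). At 1 month 1 member passed under limma-voom, the replicate block, only the groups compared, and without both libraries that stood apart. With DESeq2's Wald test 3 passed. All genes called in these 5 runs were 237, 211, 147, 149 and 630 in the same order, against 301. Other pathway genes at 1 month were 3 by DESeq2's Wald test and 0 without both libraries (7 at an unadjusted p under 0.05). For the difference of the diet effects, DESeq2's Wald test called 3 members and 9 other genes, and the replicate block 1 other gene. Leaving out both libraries called 2 members and 12 other genes. All genes called were 367, 48 and 635 in the same order, against 6. Leaving out both called 32 other genes at 3 months, beside 3910 of all genes. In chow 1 member passed by DESeq2's Wald test, beside 64 of all genes. Between the months in HFCF 17 members passed under total library size alone and 5 with only the groups compared. All genes called there were 3907 and 1298. Total library size alone called 10 higher and 3 lower members at 3 months, beside 3090 of all genes. It moved the median of all genes there from -0.00423 to 0.127.

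Same-numbered libraries did not deviate together: correlations of their deviations ran from -0.173 to 0.19, and 5 of 18 were over 0.1. The replicate numbers were therefore not treated as pairs. With the replicate block 11 members passed at 3 months and 8 between the months in HFCF, beside 2623 and 2187 of all genes. Under that block Bmp5 at 3 months had an adjusted p of 0.0599. Only the groups compared could not be run for the difference of the diet effects, which needs all 4 groups. Depth limits the scarce members, such as Tgfb2, whose counts were 2 to 47.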
